A study of Homo sapiens with 4 samples.

Results

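The genes described here are NF2, the ERM family members radixin (RDX) and moesin (MSN), and 7 genes of the Hippo pathway: the kinases LATS1 and LATS2, the co-activators YAP1 and WWTR1, and the output genes CTGF, CYR61 and ANKRD1. The members are all non-control probes that carry one of these 10 gene names on the array, 22 of 41000 probes and 10 of 30982 names. They were chosen by measured values, namely log2 ratios in which the NF2 probes disagreed after miR-489 and RDX was higher after miR-504. Their ratios between miRNA and control are therefore described without a test. Only the comparison of the 2 cell lines in the control channel was tested. That channel is the denominator of the ratios that chose the members, so this test is not fully separate from the choice.

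The study hybridised RNA of 2 human squamous cell carcinoma lines, FaDu from the hypopharynx and HSC3 from the tongue, to 4 two-colour Agilent 44K arrays. Each line was transfected with miR-489 or with miR-504 and collected after 72 h. On each array the miRNA transfectant was labelled with Cy5 and a control miRNA transfectant of the same line with Cy3, with 1 array per condition, no dye swap and all 4 arrays on 1 slide. Each group is therefore 1 transfection of 1 established line, all groups including the controls carry a transfected small RNA, and an effect of the dye cannot be told apart from a response that both miRNAs share. All 11 squamous epithelial markers found on the array were well above background on all 4 arrays in Cy3, with signals from 2418 to 52039. None of 5 fibroblast, 3 endothelial or 2 erythroid markers was, and of 4 leukocyte markers CD14 alone was, with Cy3 signals from 43.5 to 76.

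Merlin, the product of NF2, is a tumour suppressor related to ezrin, radixin and moesin. The ERM proteins tie the actin cortex to the plasma membrane, whereas merlin sits at cell junctions and promotes the activity of the LATS kinases. LATS1 and LATS2 phosphorylate YAP1 and its paralogue TAZ (gene WWTR1), which keeps them out of the nucleus, and nuclear YAP1 and TAZ act through TEAD factors on genes such as CTGF, CYR61 and ANKRD1. Squamous carcinomas are among the tumours in which this pathway is often altered.

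The mature forms of the transfected miRNAs are shown because seed pairing decides which transcripts a miRNA can recognise. The labels name no arm for either miRNA, so the forms listed by RefSeq (GRCh38.p14) are given, with the seed, bases 2 to 8, in capitals.
hsa-miR-489-3p: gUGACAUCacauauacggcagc
hsa-miR-504-5p: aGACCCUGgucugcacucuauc
hsa-miR-504-3p: gGGAGUGCagggcaggguuuc
The first lies at chr7:93483947-93483968, the second at chrX:138667760-138667781 and the third at chrX:138667724-138667744, all on the minus strand. The 3 seeds differ from one another.

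Ratios are log2 values of background-subtracted median Cy5 over Cy3, centred on each array on the median of probes well above background in both channels. Each member probe has 1 spot per array, so no member has an error within an array. For scale, the spots of other probes printed at least 5 times had a pooled SD between 0.089 and 0.11 on the log2 scale. Of the 22 probes, 20 were well above background in both channels on at least 1 array, which gave 75 ratios. The LATS1 and ANKRD1 probes were not well above background in either channel on any array, with Cy3 signals of 12 to 28 for LATS1 and 15 to 27 for ANKRD1.

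On the FaDu miR-489 array, 1 of 18 measured member probes was at least 2-fold lower, against 8.00% of all measured probes, and 1 of 18 at least 2-fold higher, against 2.91%. On the HSC3 miR-489 array the counts were 3 lower and 1 higher of 20, against 7.63% and 2.77%. On the FaDu miR-504 array they were 3 lower and 1 higher of 18, against 5.51% and 2.32%, and on the HSC3 miR-504 array 0 lower of 19 and 1 higher of 20, against 4.66% and 1.90%. The members' median log2 ratio was -0.16 for FaDu miR-489, -0.25 for HSC3 miR-489, -0.27 for FaDu miR-504 and -0.032 for HSC3 miR-504, beside -0.0027, -0.0076, -0.0045 and -0.0068 over all probes. Past 2-fold and lower with miR-489 in both lines was 1 member probe, of NF2, where 3.75% of all probes were, and 1, of RDX, was past 2-fold and higher, where 1.91% were. No member was at least 2-fold lower on both miR-504 arrays (2.37% of all probes), and RDX was the only one at least 2-fold higher on both (1.44%). These ratios chose the members, so nothing is read from the shares.

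**Figure D1:**
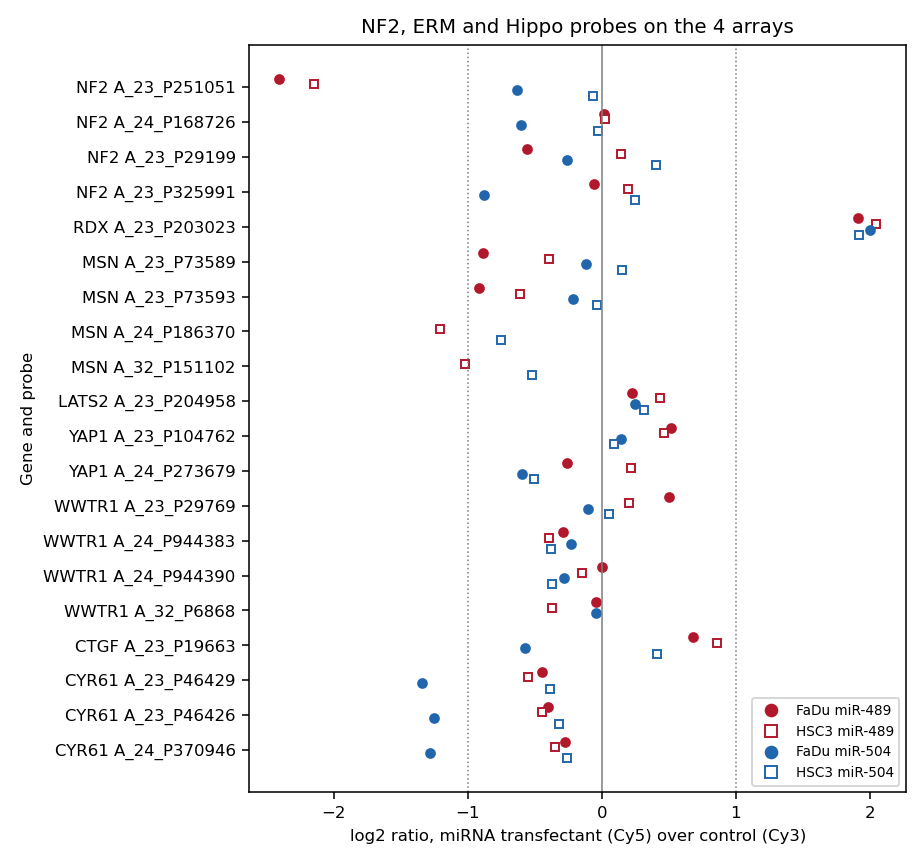
Log2 ratio of the miRNA transfectant (Cy5) over the control transfectant (Cy3) for each member probe well above background in both channels, with 1 point per array (circles FaDu, squares HSC3, red miR-489, blue miR-504; dotted lines mark 2-fold). One NF2 probe lies at -2.41 and -2.15 on the miR-489 arrays, RDX lies between 1.91 and 2.05 on all 4, and the 3 CYR61 probes lie below -1 on the FaDu miR-504 array alone.

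NF2 was represented by 4 probes, and 1 of them fell past 2-fold after miR-489. Probe A_23_P251051 gave signals of 4166.5 in the FaDu control and 1173.5 in the FaDu miR-489 transfectant, and of 14157 in the HSC3 control and 4781 in the HSC3 miR-489 transfectant. On the miR-504 arrays the same probe gave 4380 in the control and 4428 in the transfectant of FaDu, and 14126 and 18384.5 in HSC3. The miR-489 transfectant was thus the low one in both lines, and the control signals of a line were close to each other on its 2 arrays.

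The log2 ratios of this probe were -2.41 in FaDu and -2.15 in HSC3 after miR-489, which leaves 0.188 and 0.225 of the control level. They were -0.64 and -0.066 after miR-504. The ratio ranked 27th from the lowest of 23130 probes measured in both channels in FaDu, and 37th of 23474 in HSC3. Under 7 other ways of background correction, spot summary and normalisation, the ratio ranged from -2.62 to -2.20 in FaDu and from -2.35 to -1.99 in HSC3.

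The other 3 NF2 probes did not share this fall. Probe A_24_P168726 gave log2 ratios of 0.020 in FaDu and 0.023 in HSC3 after miR-489, with Cy3 signals of 149 and 1000.5, and both signs turned under some alternatives, to as low as -0.19 and -0.15. Probe A_23_P29199 gave -0.56 in FaDu, with a range of -0.77 to -0.048 over alternatives, and 0.14 in HSC3, and the HSC3 sign turned under 2 of 7 alternatives. Probe A_23_P325991 gave -0.059, whose sign turned under 3 of 7 alternatives, and 0.20. Their Cy3 signals were low in FaDu, 63 and 39, and 267 and 192 in HSC3, on the miR-489 arrays. After miR-504 the 3 probes gave -0.60, -0.26 and -0.88 in FaDu and -0.028, 0.40 and 0.25 in HSC3, so the NF2 probes all had ratios below 0 in FaDu, although that of A_23_P29199 turned positive under 3 of 7 alternatives and that of A_23_P325991 ranged from -1.05 to -0.21.

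The probes differ in the NF2 transcripts they report. The array's annotation lists A_23_P251051 for 4 RefSeq transcripts, NM_181832, NM_016418, NM_000268 and NM_181829. It lists A_24_P168726 for NM_181831 and NM_181825, and the remaining pair for NM_181831 alone, so no transcript is listed for both A_23_P251051 and another NF2 probe. By the array's own coordinates on chromosome 22, A_23_P251051 is the last in the direction of transcription, starting 37214 bases after A_23_P29199, whereas A_24_P168726 starts 20167 bases after it. The part of transcript choice or probe position in the disagreement was not tested.

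**Figure D2:**
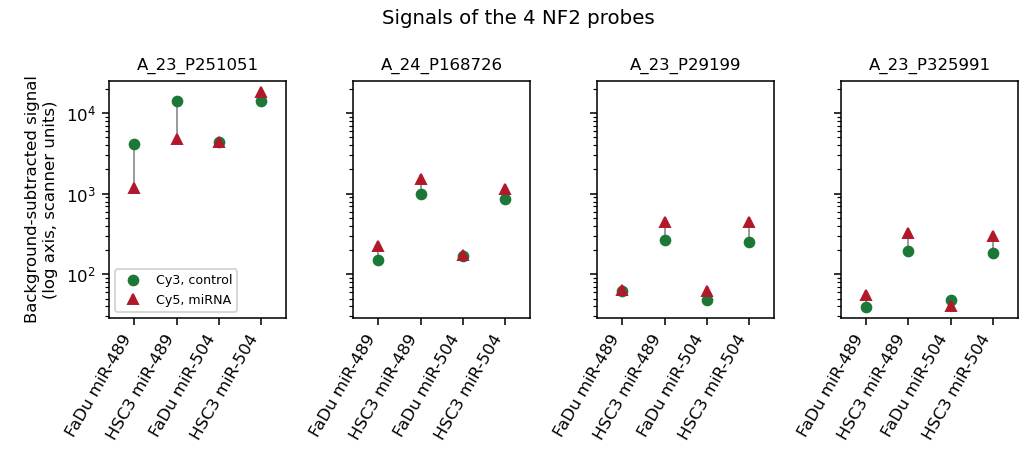
Background-subtracted signal of the 4 NF2 probes on a log axis in scanner units, with the control (Cy3, circles) and miRNA transfectant (Cy5, triangles) of each array joined by a line; signals are not centred between dyes. On A_23_P251051 the Cy5 signal lies below Cy3 on both miR-489 arrays (1173.5 against 4166.5, and 4781 against 14157), and every NF2 probe is higher in HSC3 than in FaDu in both channels.

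RDX, the gene of radixin, was higher on all 4 arrays by a similar amount. Its probe A_23_P203023 gave control signals of 171 on the FaDu miR-489 array, 171 on the HSC3 miR-489 array, 216 on the FaDu miR-504 array and 244.5 on the HSC3 miR-504 array. The corresponding miRNA transfectants gave 962.5, 1062, 1356.5 and 1260, so the 4 Cy5 signals all lay above the 4 Cy3 signals. The log2 ratios were 1.91, 2.05, 2.0 and 1.92, and their range over 7 alternatives was 1.57 to 2.07. The ratio of RDX was among the highest on each array, ranking 23rd from the top on the FaDu miR-489 array, 14th on the HSC3 miR-489 array, 9th on the FaDu miR-504 array and 7th on the HSC3 miR-504 array.

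The ratio after miR-489 differed from that after miR-504 by -0.088 in FaDu and 0.13 in HSC3 on the log2 scale, about the SD between spots of one probe. RDX was thus not particular to miR-504 in these arrays. With no dye swap, a preference of this probe for Cy5 and a rise after either miRNA cannot be told apart.

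MSN, the gene of moesin, had lower ratios after miR-489 than after miR-504 in both lines. Probe A_23_P73589 gave control and miR-489 signals of 1770 and 1429.5 in FaDu and of 10890 and 12447 in HSC3, and control and miR-504 signals of 2187 and 3169 in FaDu and of 14742.5 and 22310.1 in HSC3. After centring the log2 ratios were -0.89 in FaDu and -0.39 in HSC3 for miR-489, and -0.12 and 0.15 for miR-504, where the sign turned under 1 and 4 of 7 alternatives. Probe A_23_P73593 gave -0.91 and -0.61 for miR-489 and -0.21 and -0.032 for miR-504, the last of which turned under 1 alternative.

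The difference between miRNAs was -0.77 in FaDu and -0.54 in HSC3 for the first MSN probe and -0.70 and -0.58 for the second. The spot SD is a spread within an array and does not measure that between transfections. The controls of a line differed between its arrays by 0.35 in FaDu and 0.29 in HSC3 for the first probe, and by 0.51 and 0.17 for the second. The other MSN probes, A_24_P186370 and A_32_P151102, were not well above background in FaDu in either channel. In HSC3 they gave -1.20 and -1.02 after miR-489 and -0.75 and -0.52 after miR-504, so the 4 MSN probes had the same order of the miRNAs in HSC3. The 2-fold calls of MSN thus rest on these 2 probes in HSC3, with Cy3 signals of 159 and 99 on the miR-489 array, and neither call held under every alternative. The ratio of A_24_P186370 was -0.86 with normexp background, -0.95 without background subtraction and -0.79 with normexp and loess. That of A_32_P151102 was -0.66, -0.74 and -0.50 under the same 3 settings and -0.80 with loess alone.

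LATS2, a kinase that restrains YAP1 and TAZ, had ratios slightly above 0 on every array. Its probe A_23_P204958 gave log2 ratios of 0.23 in FaDu and 0.43 in HSC3 after miR-489, and 0.25 and 0.31 after miR-504. All 4 stayed above 0 under 7 alternatives, and none reached 1.5-fold.

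YAP1, the co-activator at the end of the kinase chain, had higher ratios after miR-489 than after miR-504 on both of its probes. Probe A_23_P104762 gave 0.52 in FaDu and 0.46 in HSC3 after miR-489, and 0.14 and 0.094 after miR-504, where the signs turned under 2 and 4 of 7 alternatives. Probe A_24_P273679 gave -0.26 and 0.22 after miR-489 and -0.60 and -0.51 after miR-504. The difference between miRNAs was 0.37 in both lines for the first probe, and 0.34 in FaDu and 0.73 in HSC3 for the second. In HSC3 the controls themselves were higher on the miR-504 array, by 0.43 and 0.72 on the normalised log2 scale. The HSC3 transfectants gave signals of 1537 after miR-489 and 1725 after miR-504 for the first probe, and 342 and 369 for the second. In FaDu the same control difference was -0.14 and 0.24. The level itself was not settled, since the probes gave opposite signs after miR-504 in both lines and after miR-489 in FaDu.

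The WWTR1 probes, which report TAZ, stayed within 1.5-fold in their main values wherever both channels were measured. Probe A_23_P29769 gave 0.50 in FaDu and 0.20 in HSC3 after miR-489 and -0.10 and 0.056 after miR-504. Its signs after miR-504 turned under 1 and 4 of 7 alternatives. Its FaDu value after miR-489 passed 1.5-fold without background subtraction, at 0.596. Probe A_24_P944383 gave values between -0.39 and -0.23 on the 4 arrays, and A_24_P944390 between -0.37 and -0.0010. The sign of A_24_P944390 turned under 4 of 7 alternatives in FaDu and 3 in HSC3 after miR-489, and under 1 in FaDu after miR-504. Probe A_32_P6868 gave -0.043 in FaDu and -0.37 in HSC3 after miR-489 and -0.043 in FaDu after miR-504, with signs that turned under 4, 3 and 3 of 7 alternatives. On the HSC3 miR-504 array its Cy3 was not well above background, with signals of 35 in Cy3 and 43 in Cy5, and no ratio is given. Both A_24_P944383 and A_24_P944390 were listed under an accession that could not be matched to RefSeq, so they carry the gene name of the array design alone.

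CTGF, a secreted matricellular protein and classical YAP1 output, differed between miRNAs and between the controls of HSC3. Its probe A_23_P19663 gave control signals of 89 and 101.5 on the miR-489 and miR-504 arrays of FaDu, and of 215.5 and 605.5 on those of HSC3. The miRNA transfectants gave 214 and 107 in FaDu, and 587.5 and 1095.5 in HSC3. In FaDu the miR-489 transfectant stood above the other 3 values, whereas in HSC3 the miR-504 pair of signals both stood above the miR-489 pair.

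The CTGF log2 ratios were 0.68 in FaDu and 0.86 in HSC3 after miR-489, and -0.57 and 0.41 after miR-504. In HSC3 the 2 control hybridisations differed by 1.23 on the normalised log2 scale, more than the 0.45 by which the ratios of the 2 miRNAs differed. CTGF was the 1 of 17 member probes with a difference of at least 2-fold between the HSC3 controls, where 1.57% of 20914 probes had one. None of the 17 did between the FaDu controls, where 0.626% of probes had one.

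CYR61, the paralogue of CTGF and another YAP1 output, was lowest after miR-504 in FaDu on all of its probes. Probe A_23_P46429 gave control and transfectant signals of 14372 and 8889.5 on the FaDu miR-504 array, of 12567.5 and 13794 on the FaDu miR-489 array, of 31186 and 31935 on the HSC3 miR-489 array and of 30046.8 and 31347.5 on the HSC3 miR-504 array. The FaDu miR-504 transfectant was thus the one sample in which Cy5 lay below Cy3 before centring.

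The 3 CYR61 probes gave log2 ratios of -1.34, -1.25 and -1.28 on the FaDu miR-504 array, against -0.45, -0.40 and -0.28 on the FaDu miR-489 array. In HSC3 they gave -0.39, -0.32 and -0.26 after miR-504 and -0.55, -0.45 and -0.35 after miR-489. The log2 ratio after miR-489 minus that after miR-504 was 0.85 to 1.0 in FaDu and -0.17 to -0.090 in HSC3. The 3 probes start within 727 bases of each other and report the same transcript, so they are repeated readings of 1 RNA and not replicates. CTGF also had a negative ratio on the FaDu miR-504 array, and the ANKRD1 probe was not measurable there.

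**Figure D3:**
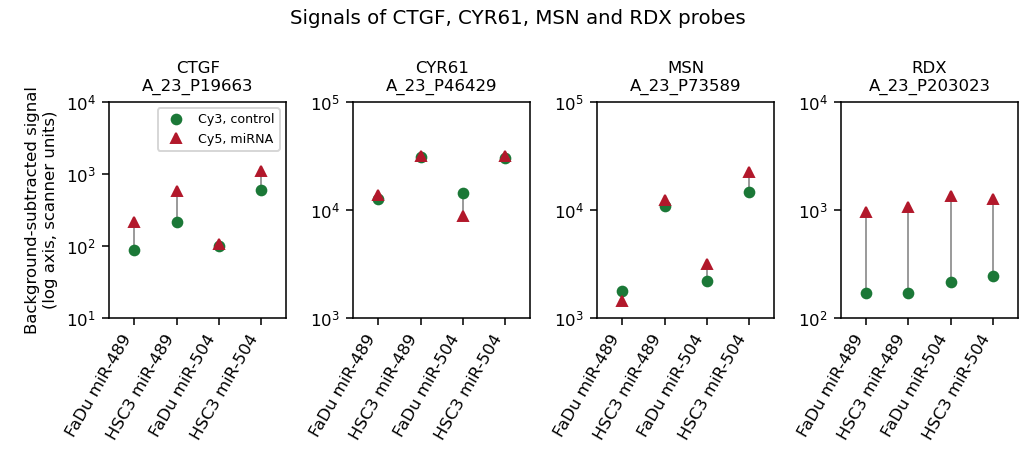
Background-subtracted signal on log axes in scanner units of 1 probe each of CTGF, CYR61, MSN and RDX, with control (Cy3, circles) and miRNA transfectant (Cy5, triangles) of each array joined by a line; signals are not centred between dyes. CYR61 has Cy5 below Cy3 on the FaDu miR-504 array (8889.5 against 14372), the CTGF controls of HSC3 lie at 215.5 and 605.5, and RDX has Cy5 above Cy3 on all 4 arrays.

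The promoters of the YAP1 outputs are shown for the TEAD core motif GGAATG, searched on both strands (CATTCC on the other strand) in the 250 bases before each RefSeq start. Of the 9 member genes with a promoter in the table, CTGF had 3 matches, ANKRD1 had 2, YAP1 had 1 and the others had none. Some of these genes have more than 1 window. Counted by window, 3 of the 13 member windows held a match, against 11.9% of all 35116 promoter windows of this length. The CTGF window is chr6:131951373-131951622 and the ANKRD1 window chr10:90921088-90921337, both on the minus strand of GRCh38.p14, with the motif in capitals.
CTGF: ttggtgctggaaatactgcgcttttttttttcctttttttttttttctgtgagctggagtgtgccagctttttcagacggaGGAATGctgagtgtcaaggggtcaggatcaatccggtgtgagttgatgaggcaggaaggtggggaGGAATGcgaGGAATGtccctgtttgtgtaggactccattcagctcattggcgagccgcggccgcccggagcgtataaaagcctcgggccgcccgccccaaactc
ANKRD1: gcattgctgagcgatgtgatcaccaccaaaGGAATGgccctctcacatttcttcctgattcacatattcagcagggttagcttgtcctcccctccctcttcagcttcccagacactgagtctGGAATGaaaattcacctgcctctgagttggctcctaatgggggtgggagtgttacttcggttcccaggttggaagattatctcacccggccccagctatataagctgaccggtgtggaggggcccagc
The 2 genes thus share the motif, and differ in that CTGF was measured on all 4 arrays and ANKRD1 on none.

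The control channel asked which of these genes differ between FaDu and HSC3 without either miRNA. NF2, MSN, LATS2, CTGF and CYR61 were all higher in HSC3, whereas RDX and YAP1 did not pass the test. For each line 2 control hybridisations were compared, and the labels do not say whether they came from separate cultures, so p-values measure only the spread between arrays. Of the 22 member probes, 17 were well above background in Cy3 on all 4 arrays. By limma with Benjamini-Hochberg adjustment over 20914 probes, 12 of these 17 differed, 11 higher in HSC3 and 1 lower. Over all probes 48.0% differed, 21.8% higher in HSC3 and 26.2% lower. The median difference, HSC3 minus FaDu, was 1.21 on the log2 scale for the 17 member probes and -0.037 for all probes tested. With so large a share of all probes called, a call on its own says little of a member, and the sizes are given.

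All 4 NF2 probes were higher in HSC3, including the 3 that did not fall after miR-489. The log2 Cy3 level of A_23_P251051 was 12.06 and 12.17 on the FaDu arrays and 13.82 and 13.67 on the HSC3 arrays, without overlap. The difference was 1.63 (SE 0.14, limma adjusted p = 0.000597), or 3.09-fold. The other NF2 probes differed by 2.36 (SE 0.20), 2.04 (SE 0.20) and 1.93 (SE 0.19), with limma adjusted p of 0.00057, 0.000771 and 0.000823. The last 2 sizes, of A_23_P29199 and A_23_P325991, which were dim in FaDu, depended on the background correction. They were 1.42 and 1.23 with normexp, 1.32 and 1.12 without subtraction, and 2.46 and 2.38 with the deposited processed signal. Under the same settings A_23_P251051 gave 1.62, 1.61 and 1.69. The miRNA transfectants kept the order, with HSC3 above FaDu by 1.95 after miR-489 and 2.0 after miR-504 for the first probe. In HSC3 the miR-489 transfectant's uncentred signal was 4781, beside 4166.5 and 4380 in the FaDu controls. The 2 channels carry different dyes, and the median log2 ratio of Cy5 over Cy3 on that array was 0.585 before centring. These signals are therefore not compared.

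MSN was higher in HSC3 on both of its tested probes. Probe A_23_P73589 had log2 Cy3 levels of 10.83 and 11.18 in FaDu and 13.44 and 13.72 in HSC3, a difference of 2.58 (SE 0.18, limma adjusted p = 0.000383), or 5.97-fold. Probe A_23_P73593 differed by 2.56 (SE 0.20, limma adjusted p = 0.000488). The other MSN probes were not well above background in FaDu, and so were outside this test. Their Cy3 signals were 38 and 32.5 in FaDu and 159 and 160.5 in HSC3 for A_24_P186370, and 18 and 24 in FaDu and 99 and 116 in HSC3 for A_32_P151102, without overlap. A filter asking for a signal on 2 arrays admits them only through HSC3, the line in which they are higher, so no test of them is given. RDX gave log2 levels of 7.50 and 7.86 in FaDu and 7.44 and 7.72 in HSC3, which overlap, and differed by -0.11 (SE 0.19, limma adjusted p = 0.661).

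LATS2 was 2.49-fold higher in HSC3, with log2 levels of 9.09 and 8.76 in FaDu and 10.24 and 10.25 in HSC3 (difference 1.31, SE 0.16, limma adjusted p = 0.00161). The YAP1 probes differed by -0.050 (SE 0.19) and 0.15 (SE 0.25), with limma adjusted p of 0.841 and 0.654, and the levels of the lines overlapped on both. One WWTR1 probe, A_23_P29769, was lower in HSC3, with levels of 9.86 and 10.12 in FaDu and 8.58 and 8.05 in HSC3 (difference -1.68, SE 0.21, limma adjusted p = 0.00182). The WWTR1 probes A_24_P944383 and A_24_P944390, under the unmatched accession, differed by -0.14 (SE 0.14) and -0.13 (SE 0.19), with limma adjusted p of 0.451 and 0.61. The remaining WWTR1 probe was well above background on 3 of 4 arrays in Cy3 and was outside the main test, so the call for WWTR1 rests there on 1 of 3 tested probes. That probe, A_32_P6868, gave Cy3 signals of 84 and 92.5 in FaDu and of 47.5 and 35 in HSC3, the last not well above background. No test of it is given.

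The outputs CYR61 and CTGF were both higher in HSC3. The 3 CYR61 probes differed by 1.08 (SE 0.15), 1.03 (SE 0.17) and 1.21 (SE 0.16), with limma adjusted p of 0.00242, 0.00406 and 0.00216, and their levels did not overlap between lines. CTGF had log2 levels of 6.56 and 6.79 in FaDu and 7.78 and 9.01 in HSC3, a difference of 1.72 (SE 0.38, limma adjusted p = 0.0124). That of CTGF was the least certain of the calls. CTGF was dim in FaDu, with Cy3 signals of 89 and 101.5, and its difference depended on the background correction. It was 1.36 with normexp, 1.29 without subtraction and 1.99 with the deposited processed signal. Without the FaDu miR-489 array its adjusted p was 0.0683, and without the HSC3 miR-504 array its difference was 1.10.

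**Figure D4:**
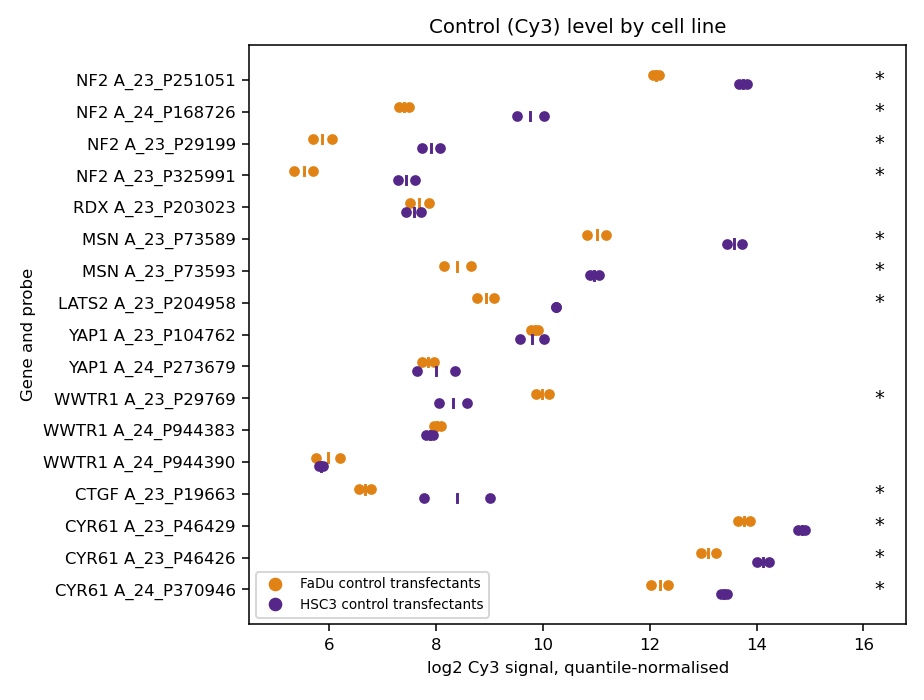
Quantile-normalised log2 Cy3 signal of the 17 member probes tested, with 1 point per control hybridisation (2 FaDu in orange, 2 HSC3 in purple), a vertical bar at each mean and an asterisk for a limma adjusted p under 0.05. All NF2, MSN, LATS2, CTGF and CYR61 probes lie higher in HSC3, 1 WWTR1 probe lies lower, and RDX and YAP1 overlap.

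The rest of the pathway was read from a list of 52 genes, of which 50 were found on the array and 43 could be tested, each by the probe with the highest mean Cy3 level. Between the lines, 22 of the 43 were higher in HSC3 and 5 lower by the same limma fit, with a median difference of 0.55. Over all probes tested 21.8% were higher and 26.2% lower, with a median of -0.037, and the counts below are to be read beside these shares. Of 10 tested outputs of YAP1 and TEAD, 8 were higher in HSC3 and 1, BIRC5, lower. Of 8 ERM family members and partners, 4 were higher and 1 lower, and of 14 genes upstream of the kinases, 7 and 1. The kinase module gave 2 higher of 5 and the nuclear partners 1 higher and 2 lower of 6.

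The 5 listed genes with the smallest p were all higher in HSC3. EDN1, which encodes endothelin 1, differed by 5.67 (SE 0.20), THBS1, thrombospondin 1, by 3.27 (SE 0.13) and CRIM1 by 2.0 (SE 0.16). EDN1 and CRIM1 were dim in FaDu, with mean Cy3 signals of 60.5 and 83.75, against 3409 and 396.25 in HSC3. How far their sizes depend on the background correction is not given here. CD44, a membrane partner of the ERM proteins, differed by 2.59 (SE 0.14) and MOB1B, an activator of the LATS kinases, by 1.90 (SE 0.17), and the limma adjusted p of the 5 ranged from 8.86e-05 to 0.000621. Ezrin (EZR), the third ERM protein, differed by 0.29 (SE 0.14, limma adjusted p = 0.136), so of the ERM family MSN alone passed the test. AJUBA, an inhibitor of the LATS kinases that the array names JUB, was not tested because its Cy3 was not well above background in FaDu. It was noticed after the values were seen, with Cy3 signals of 16 and 18 in FaDu and of 6796 and 9530.5 in HSC3.

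**Figure D5:**
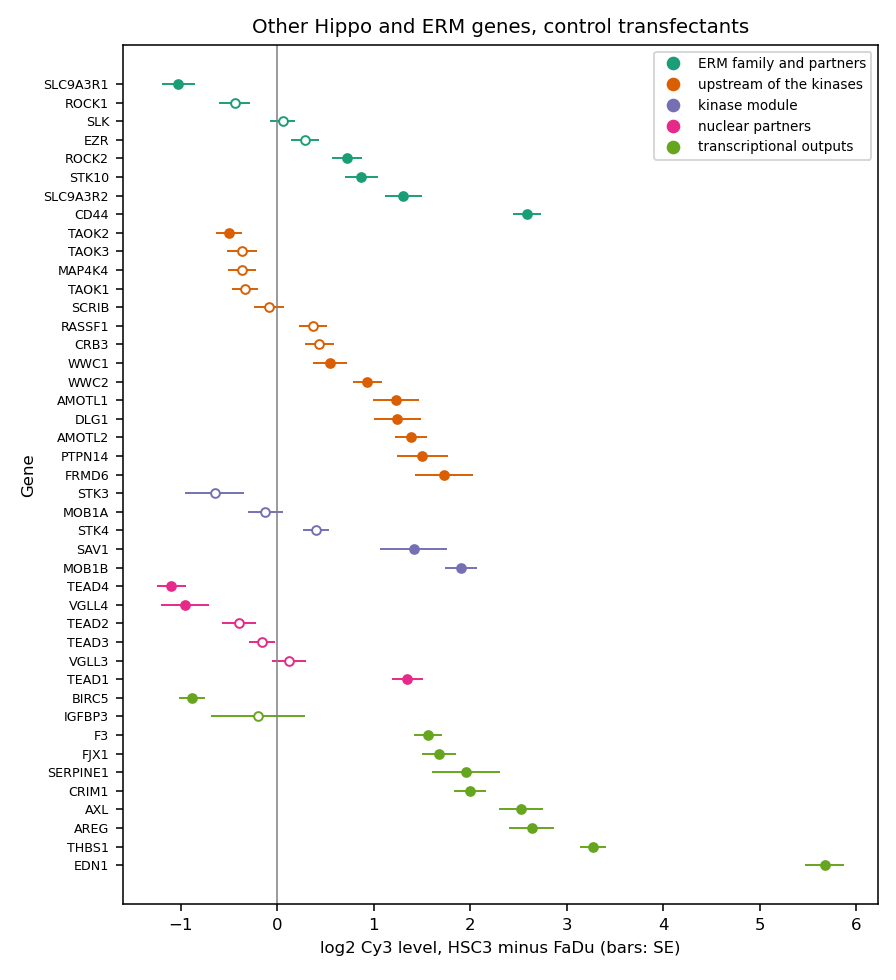
Difference in log2 Cy3 level, HSC3 minus FaDu control transfectants, for the 43 tested genes of the pathway list, with the standard error of the limma fit as bars, colours for the 5 gene groups and filled points for an adjusted p under 0.05. EDN1 at 5.67, which was dim in FaDu, and THBS1 at 3.27 lie farthest to the right, and 8 of 10 outputs lie to the right with filled points.

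After the miRNAs, few listed genes passed 2-fold in both lines, as was so for all probes. FRMD6, a FERM-domain protein related to merlin, was the one listed gene at least 2-fold higher on both arrays of a miRNA, and it was so for both miRNAs, where 1.91% of all probes were higher on both miR-489 arrays and 1.44% on both miR-504 arrays. Its control signals ranged from 302 to 1889.5, and its log2 ratios were 1.98 in FaDu and 1.84 in HSC3 after miR-489, and 1.42 and 1.43 after miR-504. As for RDX, a preference of the probe for Cy5 and a rise after either miRNA cannot be told apart. No listed gene was at least 2-fold lower on both arrays of either miRNA, where 3.75% and 2.37% of all probes were. Another 4 of the 43 genes, named here after their values were seen, passed 2-fold on 1 array. On single arrays 4.66 to 8.00% of all measured probes were at least 2-fold lower and 1.90 to 2.91% higher, so nothing is read from this count. AMOTL2 gave -1.47 and WWC1 -1.05 on the FaDu miR-504 array, SLC9A3R1 gave 1.11 on the HSC3 miR-489 array and VGLL4 gave 1.19 on the FaDu miR-489 array. Ezrin gave 0.018 and -0.071 after miR-489 and -0.18 and -0.29 after miR-504. The median log2 ratio of the outputs was -0.22 in FaDu and 0.14 in HSC3 after miR-489, and -0.21 and 0.14 after miR-504.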

How the data were processed

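The members and gene lists were chosen with earlier results of these data known. Scanner output of 4 two-colour arrays was used, with spot intensity (median signal and local median background per channel) as deposited by the authors, produced with Feature Extraction 9.5.3.1 per the file headers. The deposited series table of log10 ratios was identical to the log ratio column of the scanner output, and was used, turned into log2, as an alternative. Control spots and outlier spots were left out (118 to 137 of 43376 spots per array), no spot was saturated, and spots of 1 probe were averaged. The global normalisation of the methods was followed by subtracting each array's median log2 ratio, 0.45 to 0.65. "Well above background" is the scanner's own call, met by 58.2 to 59.2% of probes in Cy3 and 61.2 to 62.6% in Cy5. After centring, the median ratio was -0.28 to -0.41 in the dimmest quartile of probes and 0.11 to 0.18 in the brightest. A lower ratio needed Cy3, and a higher one Cy5, well above background. No fold is given against a channel not well above background. The number of arrays limits the precision.

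The lines were compared by limma 3.58.1 (R 4.3.3) on quantile-normalised log2 Cy3, with Benjamini-Hochberg adjustment at 0.05. Over 20914 probes the SD of the difference between hybridisations was 0.276 within FaDu and 0.353 within HSC3, against 0.943 and 0.947 between lines. The code was tested on simulated data. All member probes are named, with listed pathway genes past 2-fold on both arrays of a miRNA, the 5 with the smallest p between lines, and the 5 probes nearest to NF2 and to RDX. Alternatives varied background, spot summary, normalisation, filter, threshold and left-out arrays. Sequences came from RefSeq tables (GRCh38.p14). The CYR61 promoter was not analysed here. FAT1 and WTIP of the pathway list, and the marker KRT6A, were not matched to a name on the array.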

Additional observations from a re-analysis of the deposited data

Results flagged for a closer look

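The following probes had ratios on opposite sides of 0 in the 2 lines after the same miRNA, each by more than the spot SD of its array. With 1 array per line and miRNA the difference between lines was not tested. The spot SD does not measure the spread between transfections. NF2 probe A_23_P29199 gave a log2 ratio of -0.56 in FaDu and 0.14 in HSC3 after miR-489, and -0.26 and 0.40 after miR-504. Its HSC3 sign after miR-489 turned under 2 of 7 alternatives, and its FaDu sign after miR-504 under 3. NF2 probe A_23_P325991 gave -0.88 in FaDu and 0.25 in HSC3 after miR-504, and the FaDu value ranged from -1.05 to -0.21 over 7 alternatives. The FaDu control signals of both probes were between 39 and 63. MSN probe A_23_P73589 gave -0.12 and 0.15 after miR-504, and these signs turned under 1 and 4 of 7 alternatives. YAP1 probe A_24_P273679 gave -0.26 and 0.22 after miR-489. CTGF gave -0.57 and 0.41 after miR-504, with the HSC3 controls differing as described above.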

How the results depend on the processing

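The count of member probes that differed between the lines was 12 under normexp background, no background subtraction, mean spot intensity, median scaling, the deposited processed signal and an added 2-fold threshold. It was 15 where Cy3 had to be well above background on 2 arrays only, which added MSN probes A_24_P186370 and A_32_P151102 and WWTR1 probe A_32_P6868. These entered through the line in which they were higher, so nothing is read from the larger count. With the miRNA of the partner channel as a replicate block it was also 12, and 10587 probes were called in all against 10044. The deviations of arrays of the same miRNA correlated at 0.135, a single value from 2 pairs. Leaving out 1 array in turn gave 11 to 12 member calls. Over all probes 6333 calls were left without FaDu miR-489 and 6274 without FaDu miR-504, with the lone FaDu array assumed to vary like the HSC3 arrays, and CTGF ranged from 1.10 without HSC3 miR-504 to 2.33 without HSC3 miR-489. Member probes lower on both miR-489 arrays numbered 1, 3 with no filter on dim probes (NF2 and MSN) and 2 at 1.5-fold (NF2 and MSN). Those higher on both miR-489 arrays numbered 1, 2 at 1.5-fold (RDX and CTGF) and 0 at 4-fold. Those lower on both miR-504 arrays numbered 0, and 2 with no filter (LATS1 and ANKRD1, both below background), and those higher 1, and 0 at 4-fold. Among 75 member ratios, the sign differed from the main value in 0 with normexp, 2 with mean intensity, 5 with no background subtraction, 7 with total-signal normalisation, 11 with loess, 11 with normexp and loess and 14 with the deposited ratios. Total-signal normalisation moved the median of all probes to between -0.21 and -0.18. None of these alternatives turned a ratio past 2-fold to the other side of 0.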

Other observations

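The probes of other genes with the 4 ratios nearest to those of NF2 probe A_23_P251051, by Euclidean distance over the 4 arrays among 20747 probes, were BI050742 (0.31), AP1S1 (0.46), AP1M2 (0.49), CRIPT (0.49) and AHNAK (0.58). AP1S1 and AP1M2 encode subunits of the AP-1 clathrin adaptor, and AHNAK a large membrane-associated scaffold protein. AP1S1 gave log2 ratios of -2.70 in FaDu and -2.15 in HSC3 after miR-489, and -0.27 and -0.071 after miR-504. AP1M2 gave -2.41 and -2.31, then -0.22 and -0.26.

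Nearest to RDX among 20750 probes were EIF4EBP1 (0.31), BQ017638 (0.35), MAP1LC3B (0.40), BG571083 (0.46) and STAT3 (0.48). EIF4EBP1, a repressor of cap-dependent translation, gave log2 ratios of 2.07 in FaDu and 1.92 in HSC3 after miR-489, and 1.87 and 1.73 after miR-504. STAT3, a transcription factor of cytokine signalling, gave 2.01 and 2.36, then 1.66 and 1.85. Each of the 5 was high on all 4 arrays, as RDX was, which follows from choosing them by these ratios. The part of the dye was not tested.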
